A study of Mus musculus with 47 samples.

Results

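The glycosyltransferases described here are the genes whose symbols begin with Galnt, B3gnt, B4galnt, B3galt, B4galt, Fut, St3gal, St6gal, St6galnac, Gcnt or C1galt followed by a digit, and whose counts summed over all libraries reached 50. Of 24062 gene symbols in the table, 71 matched and 65 were kept. The kept genes comprised 14 that start mucin-type O-glycans, 8 grouped with the core structures and 20 that extend chains of these or other glycans. They also held 4 that add terminal N-acetylgalactosamine (GalNAc), 8 fucosyltransferases and 11 sialyltransferases. The core group holds enzymes that build or assist the cores, and also the I-branching enzyme Gcnt2. Fut4-ps1, Galnt14, Galnt9, St6gal2, St6galnac1 and St6galnac5 stayed below the limit, with 10, 24, 37, 35, 10 and 48 counts. In tissue 59 of the 65 genes passed the filter on low counts and were tested, and in organoids 51 did. B3galt1, B3gnt4, Fut7, Fut9, Galnt13 and Galnt16 were not tested in tissue.

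Mucin-type O-glycosylation starts in the Golgi when a GalNAc-transferase of the Galnt family places GalNAc on a serine or threonine. C1galt1, which needs its chaperone C1galt1c1 (Cosmc), adds galactose to make core 1, and B3gnt6 makes core 3. Some Gcnt enzymes add branches that make core 2 and core 4. B3gnt, B4galt and B3galt enzymes lengthen these cores, and fucose, sialic acid or GalNAc cap them. In the intestine such glycans cover the secreted mucin of goblet cells and the membrane mucins of absorptive cells, where they form the mucus barrier and serve microbes as binding sites and food. The name pattern also takes in enzymes of other glycans: B4galt7 and B3galt6 build the linker of proteoglycans, B4galnt1 and St3gal5 make gangliosides, B4galt5 and B4galt6 make lactosylceramide, and Fut8 adds the core fucose of N-glycans.

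RNA of mouse intestine was sequenced as single reads after removal of ribosomal RNA. The 39 tissue libraries held adenomas of Apc Min mice, normal mucosa from mice of the same genotype (called Min mucosa here) and normal mucosa of wild-type mice, all aged 15 to 19 weeks. The Min allele disables 1 copy of Apc, the brake on Wnt signalling, and mice that carry it develop intestinal adenomas. All 3 tissues were sampled on 4 backgrounds: C57BL/6xPWD F1 (B6xPWD), the F1 of C57BL/6 with the chromosome 5 consomic strain (C5F1), the consomic strain CSS C57BL/6 chr5 PWD itself (C5), which carries chromosome 5 of PWD on a C57BL/6 genome, and C57BL/6 (B6). PWD/Ph (PWD), an inbred strain derived from wild Mus musculus musculus, was sampled as wild-type mucosa only. Each of these 13 groups had 3 libraries. The 8 organoid libraries came from Apc Min organoids of C5 and B6, with 5-aza-cytidine (AZA), which traps DNA methyltransferases, or as controls, 2 libraries in each of 4 groups. Their sample records give the same age of 15 to 19 weeks. The tissue was bulk, so fewer cells of a type and less RNA per cell cannot be told apart. Neither the gut segment nor the sex was given, and nothing states that replicates came from different mice or cultures. The p-values therefore refer to library-to-library spread, which may be technical.

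Each tissue library held 2726505 to 20070696 gene counts and each organoid library 4389898 to 8373764. The 65 glycosyltransferases took 3906 to 52117 counts of a tissue library and 14986 to 29013 of an organoid library. The ribosomal precursor Rn45s took 16.4 to 72.7% of the gene counts in tissue and 0.760 to 1.61% in organoids. Markers of gut region did not run evenly through the groups. The proximal regulator Gata4 stood at 25.4, 22.8 and 1.07 normalised CPM (counts scaled to a common library size) in the B6 adenomas, against 0, 0.137 and 0.875 in B6 Min mucosa. In C5F1 it lay the other way, with 22.2 ± 4.27 in adenomas and 51.4 ± 11.6 in Min mucosa (SD, n = 3 each) and no overlap, and in C5 and B6xPWD the groups overlapped. It stood at 79.7, 132 and 25.2 normalised CPM in PWD mucosa and at 1.21, 64.1 and 78.3 in B6 wild-type mucosa. The ileal bile acid binding protein Fabp6 averaged 984 ± 648 CPM in adenomas and 2439 ± 1562 CPM in Min mucosa (SD, n = 12 each). It lay below Min mucosa of the same background in every adenoma, although its log2 change of -1.34 was not called (adjusted p = 0.0739, edgeR). Fabp6 stood at 1.02, 0.144 and 4744 CPM in PWD mucosa, against 1602, 281 and 36.9 CPM in B6 wild-type mucosa. PWD replicate 3 stood apart from the other PWD libraries in Gata4 and Fabp6. Without it 19 members were called in PWD against B6, with St6galnac4 (adjusted p = 0.166) and B3galt2 (adjusted p = 0.0773, edgeR) lost. The part of gut region in the results below was not tested.

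Levels between genes were compared as normalised CPM per kilobase of exon, over the 12 wild-type libraries of the 4 backgrounds with all 3 tissues. B4galnt2, which makes the terminal GalNAc of the Sda antigen, had the highest level at 419 ± 77.4 CPM per kb (SD, n = 12). The α2,3-sialyltransferase St3gal4 followed at 83.3 ± 47.5 CPM per kb (SD, n = 12). In the middle of the order the spreads met: Galnt6 had 28.1 ± 6.63, the chain-extending B3gnt3 26.9 ± 6.498, Galnt1 24.9 ± 3.44, C1galt1c1 24.2 ± 4.15 and the core 2 and core 4 enzyme Gcnt3 23.0 ± 9.47 CPM per kb (SD, n = 12), and these neighbours did not differ beyond their spread. Among the fucosyltransferases Fut4 had 40.3 ± 8.32 CPM per kb in B6xPWD (SD, n = 3) and 6.96 ± 1.43 CPM per kb in B6, C5F1 and C5 (SD, n = 9), where Fut8, which adds the core fucose of N-glycans, had 3.41 ± 0.917 CPM per kb (SD, n = 9). The secretor enzyme Fut2 stood at 1.09 ± 0.751 CPM per kb over the 12 libraries. B3gnt1 has no length here because the symbol could not be tied to 1 gene. Exons of B4galnt2, Galnt6, St3gal4, Galnt11, B4galnt1, St3gal6, B4galnt3, St6galnac2 and Gcnt2 overlap a transcript of the opposite strand, and Galnt4 overlaps Poc1b on the same strand. With no stated strand setting, reads of such pairs cannot be told apart.

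Control organoids shared the top of that order, with B4galnt2 at 313 ± 66.4 CPM per kb and St3gal4 at 87.1 ± 29.7 CPM per kb (SD, n = 4). The next levels in control organoids were C1galt1c1 at 73.2 ± 4.42, Galnt7 at 57.6 ± 7.84 and Galnt6 at 56.6 ± 4.38 CPM per kb (SD, n = 4). St6gal1, the α2,6-sialyltransferase of N-glycans, had 0.0216 ± 0.0152 CPM per kb in control organoids (SD, n = 4), against 5.74 ± 3.34 CPM per kb in wild-type mucosa (SD, n = 12). B3gnt6, Galnt15, B4galt2 and Fut7 had no count in any control organoid library. Tissue and organoids were normalised apart, so these levels were not tested against each other.

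**Figure D1:**
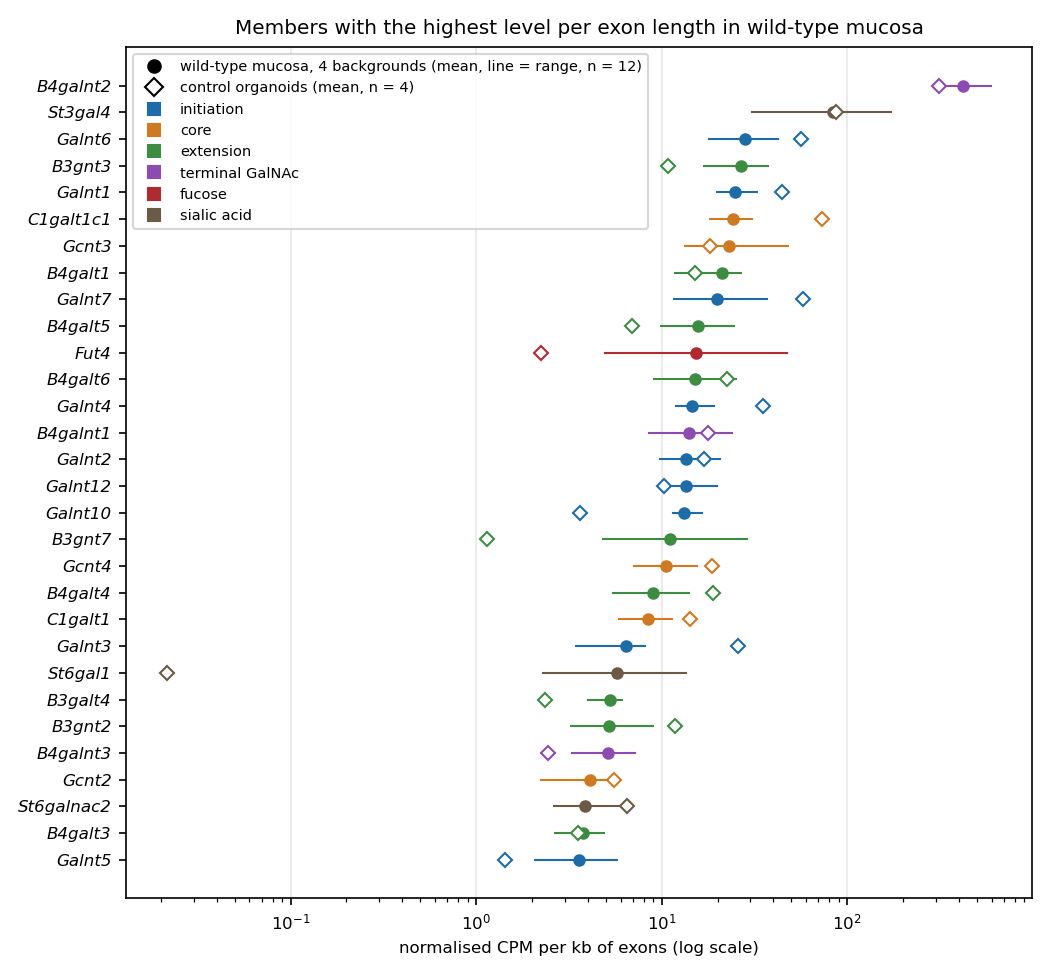
Normalised CPM per kilobase of exon (log axis) of the 30 members with the highest level in wild-type mucosa; dots are means of 12 wild-type libraries of B6xPWD, C5F1, C5 and B6 with lines from the lowest to the highest library, open diamonds are means of 4 control organoid libraries, and colours give the step of synthesis. B4galnt2 at 419 and St3gal4 at 83.3 CPM per kb lead in mucosa, and St6gal1 in organoids lies at 0.0216 CPM per kb.

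Within groups the members were fairly steady, with a median coefficient of variation of 21.4% over the 59 tested in tissue. Across the 13 tissue groups 13 of these 59 kept the ratio of the highest to the lowest group mean under 2, 38 had a ratio of 2 to 10, and 8 went beyond 10. Galnt10 and Galnt1, which start O-glycans, were the steadiest within groups, with median coefficients of variation of 8.75 and 9.15% and ratios of 1.64 and 1.57. The lowest ratio was that of C1galt1c1, at 1.504. St3gal4 had a ratio of 438, Fut2 of 55.1, B3galt5 of 42.9, B3gnt5 of 30.9 and Fut4 of 22.5.

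The first comparison set adenomas against Min mucosa, averaged over the 4 backgrounds. The fucosyltransferase Fut2 and the sialyltransferase St6galnac6 rose most, several starting enzymes rose with them, and the terminal GalNAc enzymes B4galnt2 and B4galnt3 and the sialyltransferase St3gal4 fell. By edgeR's quasi-likelihood test with Benjamini-Hochberg adjustment, 34 of the 59 members tested were called at an adjusted p under 0.05, with 45.2% of all 13657 genes called in the same comparison. Of these, 19 were higher (23.7% of all genes) and 15 lower (21.5% of all genes) in adenomas. The median log2 change was -0.06 over the members and 0.01 over all genes, and the median absolute log2 change was 0.37 over the members and 0.30 over all genes. For 16 of the 19 higher and 12 of the 15 lower members, the fitted change had the same sign on all 4 backgrounds. These members were called on the mean of the same 4 changes, so a shared sign follows in part from that choice. It is not a separate test, and the share over all called genes was not counted.

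Among the fucosyltransferases, Fut2, which adds α1,2-fucose to the surface glycans of gut epithelium, changed most. It had 77.5, 94.9 and 263 normalised CPM in B6xPWD adenomas, against 3.56, 14.4 and 1.64 in B6xPWD Min mucosa. It had 40.1, 31.97 and 27.1 normalised CPM in C5F1 adenomas, against 6.08, 4.71 and 2.09 in C5F1 Min mucosa. On these backgrounds every adenoma library stood above every Min mucosa library. It had 15.9, 24.6 and 10.3 normalised CPM in C5 adenomas, against 1.202, 17.8 and 4.29 in C5 Min mucosa. It had 31.1, 45.6 and 55.3 normalised CPM in B6 adenomas, against 7.79, 9.17 and 13.99 in B6 Min mucosa. The C5 groups overlapped through 1 Min mucosa library at 17.8 CPM, and the B6 groups did not overlap. Over the 4 backgrounds Fut2 averaged 59.8 ± 68.7 CPM in adenomas and 7.24 ± 5.55 CPM in Min mucosa (SD, n = 12 each), a log2 change of 2.63 ± 0.33 (SE, adjusted p = 8.52e-08, edgeR). Fut11 also rose, by a log2 change of 0.35, and Fut4, an α1,3-fucosyltransferase that makes Lewis X, fell by 0.53 on the log2 scale.

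**Figure D2:**
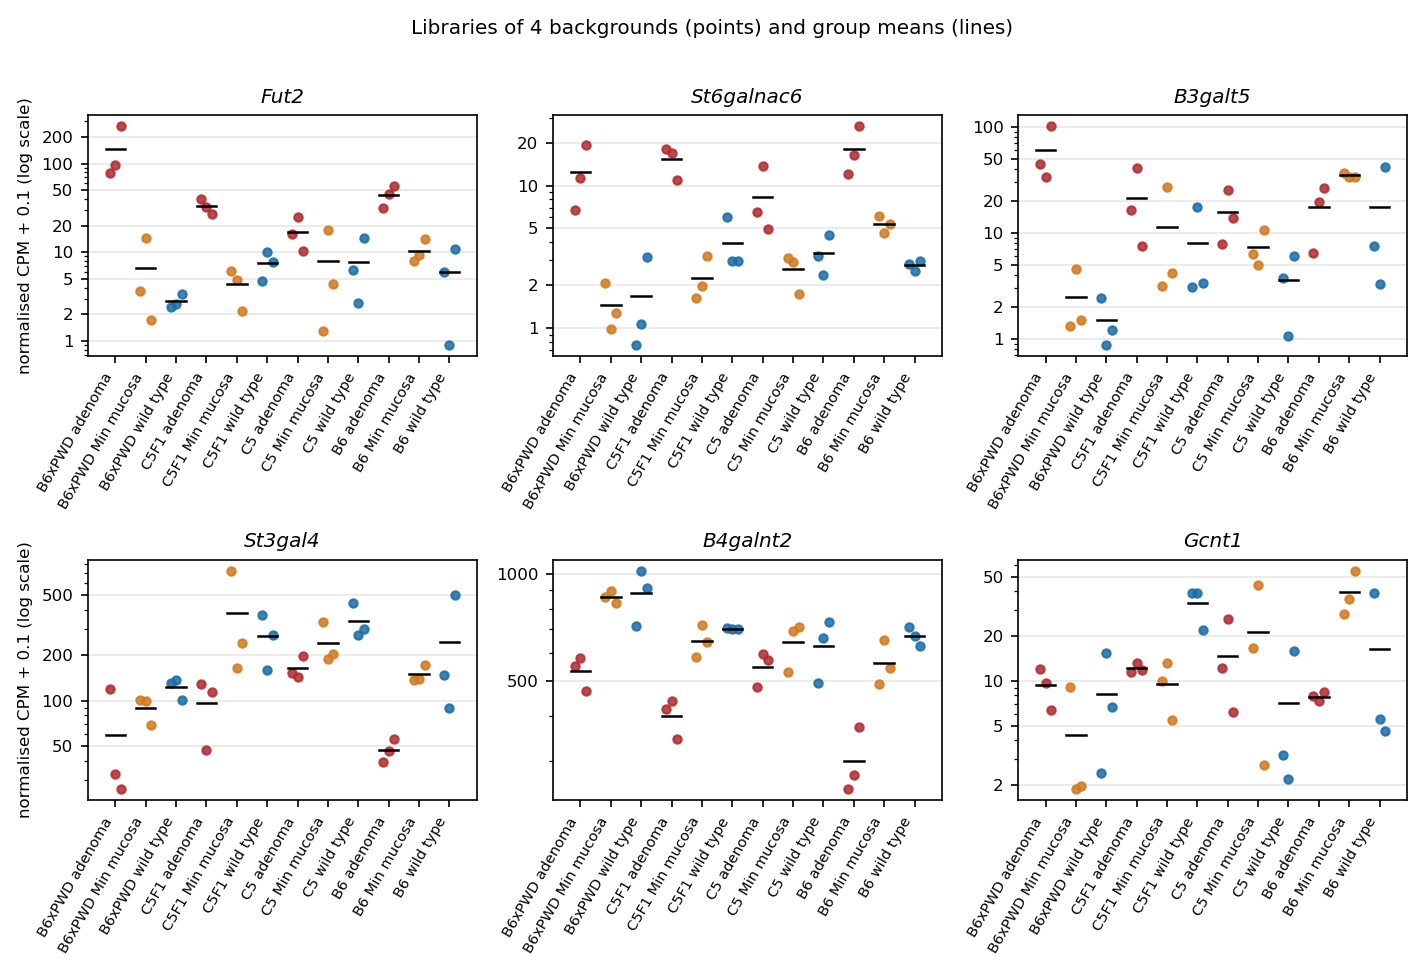
Normalised CPM plus 0.1 (log axes) of members with large differences between adenoma and Min mucosa, one point per library, with adenoma, Min mucosa and wild-type mucosa from left to right within B6xPWD, C5F1, C5 and B6, and lines at group means. Fut2 reaches 263 CPM in a B6xPWD adenoma, and St6galnac6 lies higher in adenomas on all 4 backgrounds.

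Among the sialyltransferases 4 of 11 rose (23.7% of all genes) and 2 fell (21.5% of all genes). St6galnac6, which adds α2,6-sialic acid to GalNAc residues of gangliosides and related chains, had 6.69, 11.2 and 19.2 normalised CPM in B6xPWD adenomas, against 1.96, 0.892 and 1.17 in B6xPWD Min mucosa. It had 18.03, 16.8 and 10.9 in C5F1 adenomas, against 1.52, 1.86 and 3.08 in C5F1 Min mucosa. It had 6.41, 13.5 and 4.85 in C5 adenomas, against 3.01, 2.81 and 1.64 in C5 Min mucosa. In these 3 backgrounds, and in B6 with 11.9, 16.3 and 26.0 in adenomas against 6.03, 4.52 and 5.25 in Min mucosa, the groups did not overlap. The mean log2 change of St6galnac6 was 2.19 ± 0.21 (SE, adjusted p = 2.46e-10, edgeR). Its neighbour on chromosome 2, St6galnac4, which sialylates core 1 to the sialyl-T series, lies 0.013 kb away on the same strand in RefSeq and rose by 0.45. St3gal3 rose by 1.19 ± 0.20 (SE, adjusted p = 1.08e-05) and the core 1 sialyltransferase St3gal1 by 0.40.

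The promoter of St6galnac6 is shown because the gene rose on every background and because adenomas of Apc Min mice have active Wnt signalling. The window runs from 250 bases before to 50 bases after the RefSeq start (GRCm38.p6, chr2:32599459-32599758, plus strand), and CG pairs are in capitals. St6galnac4 ends 0.013 kb before St6galnac6 by the RefSeq positions, so most bases before the start belong to the end of St6galnac4. The letters below are therefore not those of a free-standing promoter.
St6galnac6: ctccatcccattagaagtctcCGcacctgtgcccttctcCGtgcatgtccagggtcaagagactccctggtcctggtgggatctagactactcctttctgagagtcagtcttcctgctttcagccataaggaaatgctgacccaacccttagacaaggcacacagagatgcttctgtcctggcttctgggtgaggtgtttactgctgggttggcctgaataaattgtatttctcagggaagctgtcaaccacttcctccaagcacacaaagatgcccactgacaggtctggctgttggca
The window holds 2 CG pairs, the fewest among the 47 members with a promoter entry, whose highest count per gene ranged from 2 to 52 with a median of 23, against a median of 8 over 27018 genes. The core letters of the TCF/LEF motif, CTTTGA, were searched on both strands and were not found in it. At least 1 window with these letters occurred in 7 of the 47 members (14.9%) and in 18.2% of all genes. Among members higher in adenomas it occurred in 2 of 12 with an entry, among those lower in 0 of 11 and among those not called in 4 of 19. Such a match is only a description of letters in this window.

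St3gal4 fell. It had 119, 32.9 and 25.8 normalised CPM in B6xPWD adenomas, against 101, 99.1 and 69.5 in B6xPWD Min mucosa. It had 129, 47.2 and 113 in C5F1 adenomas, against 727, 164 and 243 in C5F1 Min mucosa. The C5F1 groups did not overlap, and 1 of 3 B6xPWD adenomas stood above its Min mucosa. It had 153, 143 and 196 in C5 adenomas, against 329, 188 and 205 in C5 Min mucosa. It had 38.97, 46.6 and 55.5 in B6 adenomas, against 136, 139 and 172 in B6 Min mucosa. The C5 libraries overlapped and the B6 libraries did not, and the mean log2 change was -1.19 ± 0.26 (SE, adjusted p = 0.000318, edgeR). St6gal1 fell by 0.69 (adjusted p = 0.014), and by 1.07 without B6xPWD adenoma replicate 1, where it stood at 49.2 CPM.

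Of the starting enzymes 5 of 12 rose (23.7% of all genes) and 3 fell (21.5% of all genes). Galnt18 rose by 1.44 ± 0.23 (SE, adjusted p = 5.31e-06), with 2.04 to 11.4 normalised CPM in adenomas and 0 to 3.01 in Min mucosa. Galnt3, the enzyme that also glycosylates the phosphate hormone Fgf23, averaged 58.7 ± 13.1 CPM in adenomas and 29.7 ± 6.72 CPM in Min mucosa (SD, n = 12 each), a log2 change of 0.99 ± 0.12 (SE, adjusted p = 4.27e-08, edgeR). Only 1 adenoma library, B6xPWD replicate 1 at 29.3 CPM, lay within the Min mucosa range, which reached 42.0 CPM. Galnt2 rose by 0.56 and Galnt12 by 0.53, and Galnt4 was also called higher. Galnt15 fell by 1.28 ± 0.25 (SE, adjusted p = 0.000106), Galnt7 by 0.37 and Galnt10 by 0.25. Galnt1, the most abundant starting enzyme by CPM, had 87.7 to 149 CPM in adenomas (median 117) and 102 to 166 CPM in Min mucosa (median 130), and was not called.

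In the core step C1galt1 rose while its partners did not. It averaged 77.4 ± 11.1 CPM in adenomas and 55.2 ± 10.01 CPM in Min mucosa (SD, n = 12 each), a log2 change of 0.48, whereas its chaperone C1galt1c1 fell by 0.25, the core 3 enzyme B3gnt6 by 0.75 and the core 2 enzyme Gcnt4 by 0.37. Gcnt3 had 78.8 to 171 CPM in adenomas (median 97.04) and 72.2 to 152 CPM in Min mucosa (median 93.7), which overlapped, and it was not called. In the chain extension group 6 of 18 rose (23.7% of all genes) and 3 fell (21.5% of all genes). This group also holds enzymes of proteoglycans and glycolipids, among them B3galt6, B4galt7, B4galt5, B4galt6 and B3gnt5, so the counts are not those of mucin-type chains alone. B3galt5, which makes type 1 chains, rose by 1.31 ± 0.39 (SE, adjusted p = 0.00683), B3gnt5, the entry enzyme of lacto-series glycolipids, by 0.92, B3galt6 by 0.76 and B4galt6 by 0.40, and B4galt3 and B4galt7 were also called higher. B4galt5 fell by 0.77, B4galt4 by 0.44 and B3gnt1 by 0.34.

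All 4 terminal GalNAc enzymes were called (45.2% of all genes). B4galnt2 averaged 446 ± 119 CPM in adenomas and 681 ± 131 CPM in Min mucosa (SD, n = 12 each), a log2 change of -0.63 (adjusted p = 1.86e-06, edgeR). Its libraries ranged from 249 to 596 CPM in adenomas and from 493 to 894 CPM in Min mucosa, which overlapped. B4galnt3, which adds GalNAc to N-acetylglucosamine, averaged 9.30 ± 2.82 CPM in adenomas and 18.2 ± 3.62 CPM in Min mucosa (SD, n = 12 each), a log2 change of -0.98 ± 0.11 (SE, adjusted p = 1.60e-08, edgeR). B4galnt1 fell by 0.44, and B4galnt4, the close relative of B4galnt3, rose by 0.66. Of the 30 largest calls 26 stayed called without any 1 of the 24 libraries. The call of B3gnt6 was lost without C5F1 Min mucosa replicate 2 (log2 -0.50, adjusted p = 0.0674), that of B4galnt1 without C5F1 adenoma replicate 2, C5F1 Min mucosa replicate 1 or C5 adenoma replicate 1 (adjusted p 0.0511 to 0.0593), that of B3gnt1 without any of 8 libraries and that of C1galt1c1 without any of 5.

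Marker lists moved with this comparison, in which 23.7% of all genes were higher and 21.5% lower. The summed level of the enterocyte markers was 2169 to 8490 CPM in adenomas and 7284 to 15238 CPM in Min mucosa, with 7 of 10 lower. Goblet cell markers summed to 4012 to 11382 CPM in adenomas and 9242 to 13764 CPM in Min mucosa, with 2 of 12 higher and 6 lower, and Paneth cell markers had 1 of 7 higher and 6 lower. Markers of stomach and Brunner gland summed to 8.23 to 320 CPM in adenomas and 0 to 3.85 CPM in Min mucosa, with 5 of 5 tested higher. All 6 smooth muscle markers and 4 of 5 myeloid markers were lower, and 3 of 6 fibroblast markers were higher. The part of these lists in the glycosyltransferase changes was not tested.

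Other genes of the pathway were taken from 3 lists, beside the same 23.7% of all genes higher and 21.5% lower. Of 4 mucin genes tested 2 rose and 1 fell: the gland mucin Muc6 rose by 5.25 ± 0.35, the membrane mucin Muc4 rose by 1.27 ± 0.28 and the membrane mucin Muc13 fell by 1.05 ± 0.13 on the log2 scale (SE). Of 21 genes that make or carry sugar donors 7 rose and 6 fell, and Gfpt2, an entry enzyme of the hexosamine pathway, had the only change beyond 1, with a log2 change of 1.45. Of 12 genes of sulfation and other caps 3 rose and 2 fell, and the galactose sulfotransferase Gal3st2 fell by 1.57.

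The change in adenomas was next read within each background. In B6, 22 of 59 members were called (26.7% of all genes), 11 higher (13% of all genes) and 11 lower (13.7%). In C5F1, 14 were called (20.5% of all genes), 9 higher (10.9%) and 5 lower (9.66%). In B6xPWD, 13 were called (16.4% of all genes), 9 higher (9.43%) and 4 lower (6.98%). In C5, 1 was called (2.77% of all genes), and it was higher (2.59%). Replicate numbers paired adenoma with Min mucosa in these data, so the tests were repeated with the number as a block. Then 27 members were called in B6 (28.7% of all genes), 24 in C5F1 (34.9% of all genes), 15 in C5 (13% of all genes) and 9 in B6xPWD (8.85% of all genes). Over the mean of 4 backgrounds the block lost the call of B4galt7 (log2 0.26, adjusted p = 0.0628, edgeR). It added Galnt5 (-0.35, adjusted p = 0.0213) and St6galnac2 (0.25, adjusted p = 0.0263), and the other calls stayed.

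In B6 the members called higher were Fut2 with a log2 change of 2.06, St6galnac6 1.70, Galnt18 1.47, St3gal3 1.18, B3galt6 1.02, the core 1 sialyltransferase St6galnac2 1.02, B4galnt4 0.88, B4galt6 0.75, Galnt2 0.70, Galnt3 0.67 and Fut11 0.60. Those lower were the core 2 enzyme Gcnt1 at -2.29, St3gal4 -1.67, Galnt15 -1.65, B4galnt3 -1.28, B3gnt6 -1.22, B4galnt2 -0.92, B4galt5 -0.90, B4galnt1 -0.89, Fut4 -0.63, Galnt7 -0.61 and Galnt10 -0.55. Gcnt1 had 7.78, 7.22 and 8.33 normalised CPM in B6 adenomas, against 27.8, 35.5 and 54.8 in B6 Min mucosa. The groups did not overlap, but B6 wild-type mucosa spanned both, at 38.9, 5.44 and 4.54 CPM. St6galnac6, B3galt6, St6galnac2, Galnt10, B4galnt2 and B4galnt3 stayed called without any 1 of the 6 libraries, and the other 16 did not. The number called was 12 without B6 adenoma replicate 1 or 2 and 13 without B6 Min mucosa replicate 2. With the replicate block 21 of the 22 calls remained and Fut11 was lost (log2 0.58, adjusted p = 0.0617). The block added St3gal6 at 0.98, B3galt5 at -1.26, St6gal1 at -1.24, B3gnt7 at -0.94, St3gal2 at -0.77 and Gcnt3 at -0.53.

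In C5F1 the higher members were Fut2 with a log2 change of 3.01, St6galnac6 2.55, Galnt18 1.33, Galnt3 1.28, St3gal3 1.17, B3galt6 0.87, Galnt12 0.67, C1galt1 0.64 and Galnt2 0.59. The lower ones were St3gal4 at -1.96, B4galnt3 -1.28, B4galt5 -0.90, Gcnt4 -0.70 and B4galnt2 -0.70. Galnt3 had 55.3, 59.3 and 56.0 normalised CPM in C5F1 adenomas, against 19.0, 25.8 and 23.5 in C5F1 Min mucosa, with no overlap. Fut2, St6galnac6, Galnt3, B4galnt2 and B4galnt3 stayed called without any 1 library. The number called was 7 without C5F1 adenoma replicate 2 or 3, 6 without Min mucosa replicate 1 and 9 without Min mucosa replicate 3. The fall of St3gal4 shrank to -1.13 (adjusted p = 0.128) without C5F1 Min mucosa replicate 1, the library at 727 CPM.

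In C5 St6galnac6 alone was called, with a log2 change of 1.64 ± 0.40 (SE, adjusted p = 0.0157, edgeR), and this call was lost without C5 adenoma replicate 2 or Min mucosa replicate 2 or 3. At an unadjusted p under 0.05, 13 of 59 members passed, beside 1667 of all 13657 genes. With the replicate block St6galnac6 had a log2 change of 1.62, Fut2 1.25, B3galt5 1.06, St3gal3 0.92, Galnt3 0.80, B3galt6 0.79, B4galnt4 0.63, B4galt6 0.57, Galnt2 0.51, C1galt1 0.48 and Galnt12 0.45, and Galnt15 -1.26, St6gal1 -1.10, B4galt5 -0.64 and St3gal4 -0.52, all called.

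In B6xPWD the higher members were B3galt5 with a log2 change of 4.499, Fut2 4.40, St6galnac6 2.87, B3gnt5 2.38, Galnt18 2.35, St6galnac4 1.81, St3gal3 1.54, Galnt3 1.22 and St3gal1 0.77. The lower ones were B4galnt3 at -0.95, Fut4 -0.82, B4galnt2 -0.69 and Galnt7 -0.63. B3gnt5 had 16.6, 5.22 and 13.2 normalised CPM in B6xPWD adenomas, against 1.96, 2.14 and 1.87 in B6xPWD Min mucosa, with no overlap. With the replicate block Galnt18 (log2 2.24, adjusted p = 0.0568), Galnt3 (1.12, 0.0614), Fut4 (-0.80, 0.124), B4galnt2 (-0.67, 0.0848) and Galnt7 (-0.59, 0.0808) were no longer called, and B3gnt7 passed (1.24, 0.0463). St3gal3 (1.04), Fut4 (-0.63), B4galnt2 (-0.63) and Galnt7 (-0.55) were lost without adenoma replicate 3, and St3gal1 (0.63) without adenoma replicate 1.

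**Figure D3:**
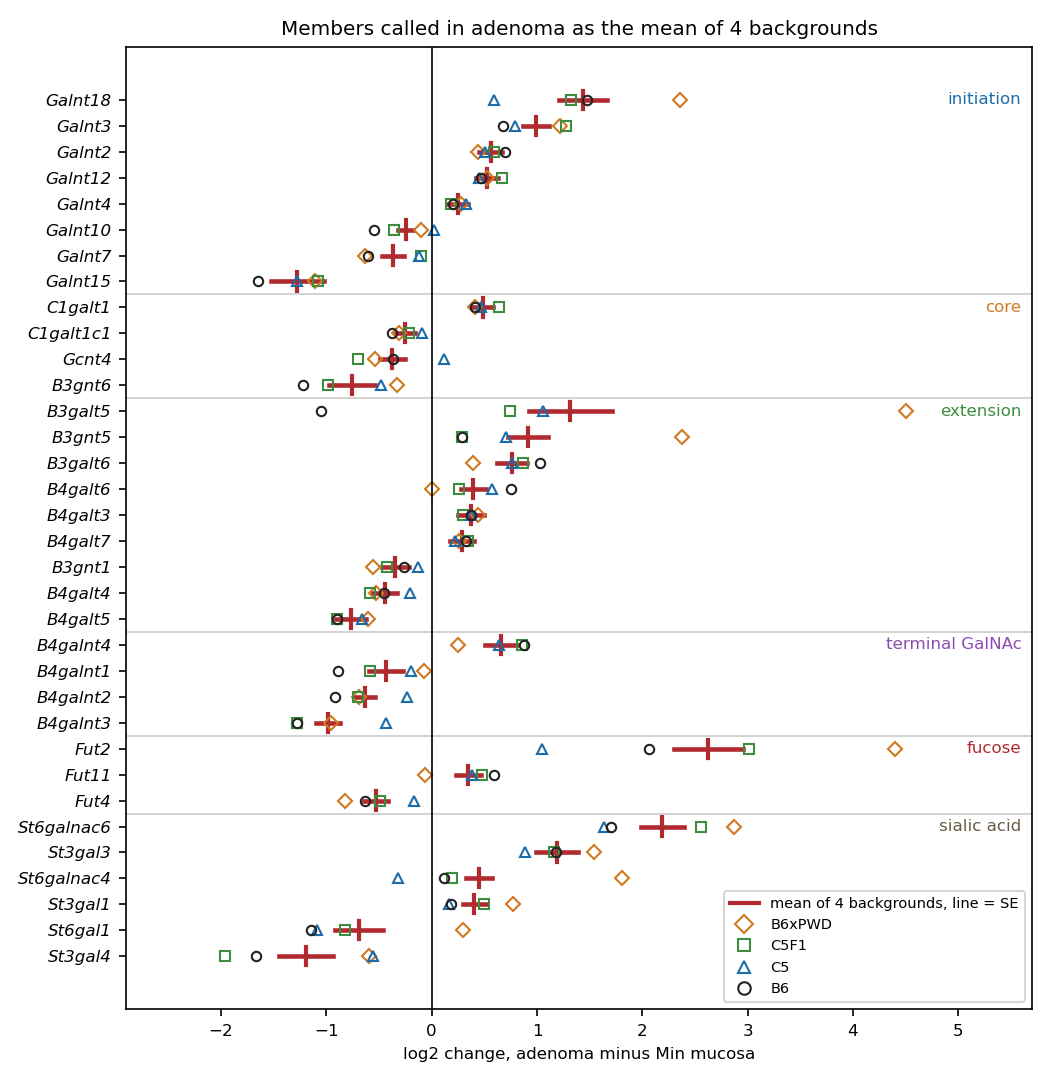
Fitted log2 change, adenoma over Min mucosa, of the 34 members called as the mean of 4 backgrounds, grouped by step; open markers are backgrounds with 3 libraries in each group, red ticks the mean with its SE as a line, and the black vertical line marks no change. Fut2 runs from 4.40 in B6xPWD to 2.06 in B6, and B3galt5 spreads widest, with 4.499 in B6xPWD against -1.05 in B6.

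The difference of the adenoma effect between backgrounds was tested as an interaction, and all of these contrasts share the B6 libraries. For B6xPWD minus B6, 3 of 59 members were called (0.63% of all genes), 2 higher (0.476%) and 1 lower (0.154%). B3galt5 had 44.6, 33.4 and 101 normalised CPM in B6xPWD adenomas, against 1.23, 4.46 and 1.40 in B6xPWD Min mucosa. It had 6.29, 19.2 and 26.5 in B6 adenomas, against 36.7, 33.7 and 33.8 in B6 Min mucosa. It lay above Min mucosa in every B6xPWD adenoma and below it in every B6 adenoma, and the interaction was 5.55 ± 1.17 (SE, adjusted p = 0.0297, edgeR). Within B6 its change of -1.05 was not called without the replicate block and was called with it (-1.26, adjusted p = 0.0113), and its B6 wild-type libraries stood at 7.39, 3.20 and 42.0 CPM.

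St6galnac4 had 8.40, 7.34 and 11.3 normalised CPM in B6xPWD adenomas, against 2.58, 1.43 and 3.04 in B6xPWD Min mucosa. It had 3.43, 4.75 and 3.84 in B6 adenomas, against 4.02, 3.29 and 3.50 in B6 Min mucosa. The B6xPWD groups did not overlap and the B6 groups did, and the interaction was 1.69 ± 0.34 (SE, adjusted p = 0.0256, edgeR). St6galnac2 had 23.0, 34.0 and 30.03 normalised CPM in B6xPWD adenomas, against 33.5, 38.9 and 43.3 in B6xPWD Min mucosa. It had 17.9, 23.2 and 23.3 in B6 adenomas, against 6.03, 14.7 and 10.5 in B6 Min mucosa. It stood higher in every B6 adenoma and its interaction was -1.42 ± 0.34 (SE, adjusted p = 0.0385, edgeR), although B6 wild-type mucosa, at 20.5, 36.6 and 27.2 CPM, lay above B6 Min mucosa. Each of the 3 calls was lost when some single library was left out, with adjusted p up to 0.114 for B3galt5 and St6galnac4 (without B6 adenoma replicate 1) and up to 0.185 for St6galnac2 (without B6xPWD adenoma replicate 1). None of the 3 was called without B6 adenoma replicate 1 or B6xPWD Min mucosa replicate 1 or 2, and 1 was without B6 adenoma replicate 2 or without Min mucosa replicate 3 of B6xPWD or of B6. With the replicate block 2 members were called (0.461% of all genes): B3galt5 stayed called (5.68, adjusted p = 0.00915), Gcnt1 joined it (3.50, adjusted p = 0.00915), and St6galnac4 (adjusted p = 0.0852) and St6galnac2 (adjusted p = 0.0524) did not pass.

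For C5 minus B6 no member was called by edgeR (0.11% of all genes, 0.0732% higher and 0.0366% lower) or DESeq2. At an unadjusted p under 0.05 there were 5 of 59 members, beside 1276 of all 13657 genes. With the replicate block 5 passed (4.44% of all genes): B3galt5 at 2.29, Gcnt1 1.91, St3gal4 1.15, Gcnt3 0.72 and St6galnac2 -1.05. For C5F1 minus B6 no member was called by edgeR (0% of all genes) or DESeq2. At an unadjusted p under 0.05 there were 3 of 59 members, beside 397 of all 13657 genes. With the block 1 member, Gcnt1, passed at 2.62 (adjusted p = 0.00118, edgeR), against 0.703% of all genes.

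Over the same 4 backgrounds Min mucosa was set against wild-type mucosa. No member was called by edgeR (0.00732% of all genes) or DESeq2. At an unadjusted p under 0.05 there were 4 of 59 members, beside 1014 of all 13657 genes. These 4, named after their values were seen, were St3gal5 with a log2 difference of 0.49, St6galnac2 -0.29, B4galt3 -0.27 and B4galt5 -0.34. Fut2 averaged 7.24 ± 5.55 CPM in Min mucosa (SD, n = 12), and its log2 difference from wild-type mucosa was 0.31 ± 0.36 (SE). For St6galnac6 that difference was -0.04 ± 0.20 and for B4galnt2 -0.09 ± 0.09 (SE).

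In wild-type mucosa PWD differed from B6 in Fut4, which was high in PWD, and in St3gal4, which was almost undetected there. Of 59 members 21 were called (18.7% of all genes), 9 higher (9.96%) and 12 lower (8.79%) in PWD. The median log2 difference was -0.12 over the members and 0 over all genes, and the median absolute difference was 0.67 over the members and 0.39 over all genes. Fut4 had 410.3, 326 and 330.4 normalised CPM in PWD, 127, 171 and 194 in B6xPWD, and 27.5, 25.8 and 22.7 in B6. The 3 groups stood apart in that order. The log2 difference was 3.78 ± 0.25 for PWD against B6 (SE, adjusted p = 6.18e-13, edgeR) and 2.67 ± 0.24 for B6xPWD against B6 (SE, adjusted p = 4.54e-09, edgeR). Fut4 was also high in B6xPWD Min mucosa, at 126, 219.5 and 205 CPM, against 36.8, 24.0 and 23.3 CPM in B6 Min mucosa. C5F1 and C5 wild-type mucosa, with 27.7 to 40.6 and 20.2 to 31.0 CPM, lay near B6.

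St3gal4 had 0.508, 0.866 and 1.22 normalised CPM in PWD, 130.0, 137 and 101 in B6xPWD, and 148, 89.7 and 500 in B6. Every PWD library lay far below every other wild-type library, and the B6xPWD and B6 libraries overlapped. The log2 difference was -7.72 ± 0.75 for PWD against B6 (SE, adjusted p = 5.77e-09, edgeR), from 12 counts in 3 PWD libraries and 2427 in 3 B6 libraries. For B6xPWD against B6 it was -0.99 ± 0.52 (SE) and was not called. Reads of all strains were aligned to mm10, the genome of B6, and a loss of PWD reads in alignment, here or at other members, was not tested. The opposite-strand transcript that overlaps exons of St3gal4 is 4930581F22Rik.

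The promoters of St3gal4 and Fut4 are shown because these genes differed most between PWD and B6. Both are the B6 sequence of RefSeq (GRCm38.p6, minus strand, chr9:35116815-35117114 for St3gal4 and chr9:14752073-14752372 for Fut4), with CG pairs in capitals.
St3gal4: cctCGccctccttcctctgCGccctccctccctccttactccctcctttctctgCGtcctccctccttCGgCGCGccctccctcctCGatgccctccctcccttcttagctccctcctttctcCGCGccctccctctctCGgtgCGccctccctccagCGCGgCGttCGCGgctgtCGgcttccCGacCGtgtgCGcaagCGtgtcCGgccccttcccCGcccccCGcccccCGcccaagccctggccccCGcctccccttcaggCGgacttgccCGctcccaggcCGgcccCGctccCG
Fut4: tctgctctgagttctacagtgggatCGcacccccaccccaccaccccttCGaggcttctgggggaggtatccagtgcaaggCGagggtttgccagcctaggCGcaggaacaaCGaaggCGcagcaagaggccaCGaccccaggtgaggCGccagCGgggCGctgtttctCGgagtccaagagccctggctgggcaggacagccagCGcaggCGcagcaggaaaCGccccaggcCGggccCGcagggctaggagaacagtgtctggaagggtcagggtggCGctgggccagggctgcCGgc
The St3gal4 window holds 31 CG pairs and the Fut4 window 18, and neither holds CTTTGA on either strand. Both genes lie on chromosome 9, and the PWD sequence of these windows was not used here.

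The other members higher in PWD than in B6 were St3gal6 with a log2 difference of 1.75, Galnt11 1.75, B3gnt8 1.39, B4galt6 1.38, B3gnt2 1.25, Gcnt3 0.99, the I-branching enzyme Gcnt2 0.84 and St6galnac4 0.75. St3gal6 had 39.4, 32.03 and 33.1 normalised CPM in PWD, against 6.04, 14.2 and 10.2 in B6. B4galt6 had 196, 157 and 233 normalised CPM in PWD, against 52.7, 72.1 and 102 in B6. B3gnt2, the main maker of N-acetyllactosamine repeats, had 50.3, 50.1 and 23.4 CPM in PWD, against 18.3, 19.0 and 13.6 in B6. In all 3 genes the groups did not overlap, though B3gnt2 came close in PWD replicate 3. B3gnt8 had 6.09, 8.80 and 4.56 CPM in PWD, against 3.62, 1.92 and 0.567 in B6.

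The core 1 enzyme, 1 starting enzyme and 1 terminal GalNAc enzyme were among the members lower in PWD. C1galt1 had 23.6, 20.2 and 23.4 normalised CPM in PWD, against 56.0, 49.3 and 51.6 in B6. Galnt3 had 14.5, 9.09 and 14.6 CPM in PWD, against 31.7, 32.5 and 23.8 in B6. B4galnt3 had 4.32, 5.77 and 8.51 CPM in PWD, against 12.4, 16.6 and 19.9 in B6. None of these groups overlapped, and the log2 differences were -1.22 ± 0.21 (adjusted p = 0.00011), -1.23 ± 0.26 (adjusted p = 0.000837) and -1.34 ± 0.25 (SE, adjusted p = 0.000208, edgeR). Fut11 had 4.32, 3.32 and 3.04 CPM in PWD, against 8.90, 7.999 and 9.07 in B6, a log2 difference of -1.21. B3gnt5 was lower by -2.63 (6 counts in PWD and 66 in B6), B3galt2 by -1.55, B3gnt6 by -1.51, St3gal1 by -0.97, B4galt1 by -0.89, B4galt4 by -0.70 and Galnt10 by -0.45. The calls of B3gnt8, Gcnt3, St6galnac4, B3galt2, B3gnt6, B4galt1, B4galt4 and Galnt10 were lost without 1 or more single libraries, with Gcnt3 at 0.84 (adjusted p = 0.0524) without B6 replicate 2 B4galt1 at -0.71 (adjusted p = 0.0658) without PWD replicate 2, and B4galt4 at -0.45 (adjusted p = 0.201) without PWD replicate 1.

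**Figure D4:**
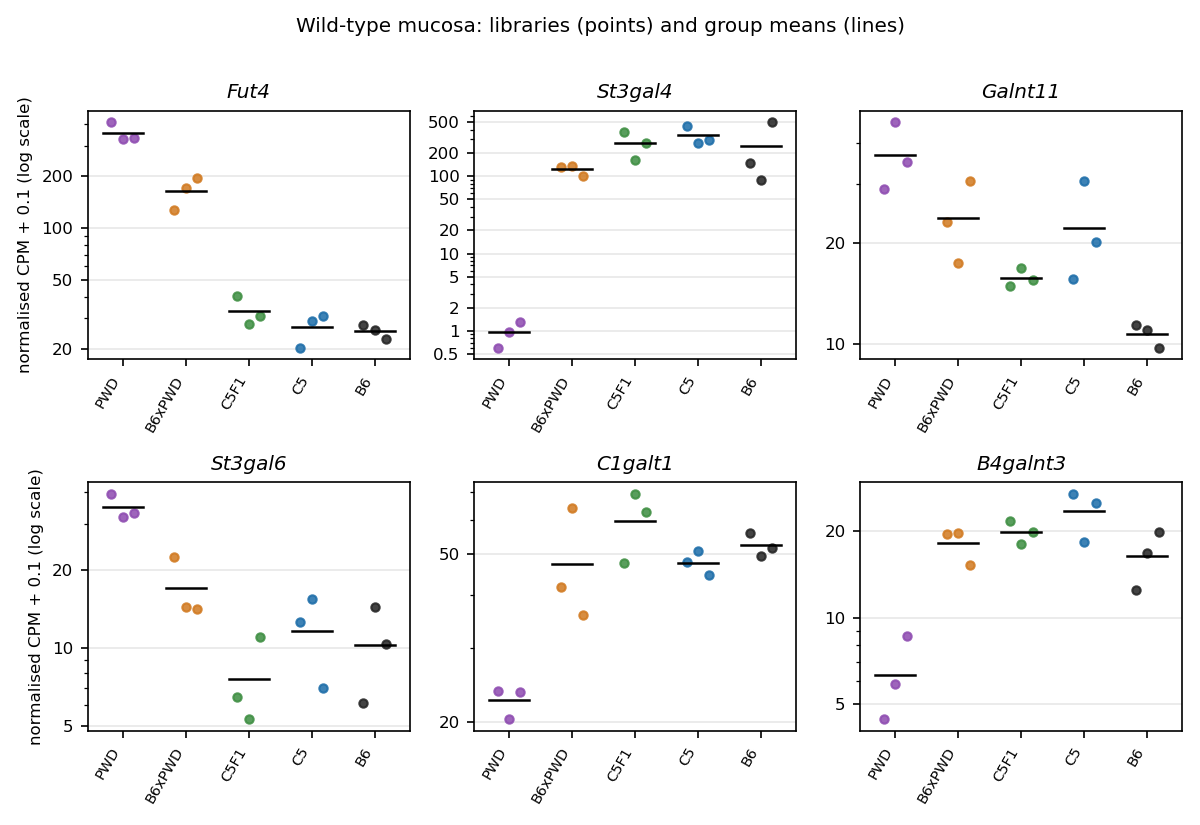
Normalised CPM plus 0.1 (log axes) in wild-type mucosa of PWD, B6xPWD, C5F1, C5 and B6, one point per library and lines at group means of 3. Fut4 falls in steps over PWD, B6xPWD and B6, and St3gal4 lies between 0.508 and 1.22 CPM in PWD alone.

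B6xPWD against B6 gave 9 called members (9.6% of all genes), 5 higher (5.29%) and 4 lower (4.31%), and shares the B6 libraries with the comparison above. Beside Fut4, Galnt11 was higher by 1.11, Gcnt3 by 0.89, B3gnt2 by 0.88 and B4galt4 by 0.70. Lower were B3galt5 at -3.23, B3gnt5 -1.85, St6gal1 -1.46 and St3gal1 -1.16. St3gal1 had 15.8, 7.52 and 8.35 normalised CPM in B6xPWD, against 20.8, 28.2 and 20.4 in B6, with no overlap. St6gal1 had 11.2, 19.9 and 20.7 CPM in B6xPWD, against 66.8, 48.2 and 27.8 in B6, also with no overlap. Markers of other cell types moved with these members: 4 of 6 B and plasma cell markers, 2 of 4 endothelial and 2 of 6 fibroblast markers were lower in B6xPWD than in B6, and of 5 myeloid markers 1 was higher and 2 were lower. The endothelial markers summed to 11.6 to 17.4 CPM in B6xPWD and 40.7 to 43.7 CPM in B6. Fabp6 stood at 5422, 6122 and 2446 CPM in B6xPWD, against 1602, 281 and 36.9 CPM in B6, with no overlap. Gata4 stood at 35.6, 0.964 and 0.879 CPM in B6xPWD, against 1.21, 64.1 and 78.3 CPM in B6, and overlapped. The part of these cell types and of gut region was not tested. The fall of B3galt5 shrank to -1.84 (adjusted p = 0.259) without B6 replicate 3, that of B3gnt5 to -1.04 (adjusted p = 0.237) without B6 replicate 1, and the rise of Gcnt3 to 0.48 (adjusted p = 0.264) without B6xPWD replicate 3. With only the B6xPWD and B6 libraries in the fit, 1 member was called, and without B6 replicate 1 or B6xPWD replicate 2, 5 were.

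PWD against B6xPWD, a comparison chosen after the data were seen, gave 14 called members (12.5% of all genes), 7 higher (6.99%) and 7 lower (5.52%). The higher ones were St6galnac3 with a log2 difference of 1.75, B3gnt8 1.74, Fut4 1.11, St3gal6 1.04, St6galnac4 1.01, B4galt6 0.72 and Galnt2 0.67. The lower ones were St3gal4 at -6.73, B3gnt6 -1.55, B4galnt3 -1.52, B4galt4 -1.40, Galnt3 -1.08, C1galt1 -1.07 and Galnt7 -0.86. B4galt4, a chain galactosyltransferase, had 7.87, 18.8 and 14.9 normalised CPM in PWD, against 41.9, 45.3 and 25.5 in B6xPWD. C1galt1 had 41.6, 64.0 and 35.8 CPM in B6xPWD, above all PWD libraries. Fut4, C1galt1, B4galt4, B4galnt3 and St3gal4 stayed called without any 1 library, and the other 9 did not, with 7 called without B6xPWD replicate 2 or PWD replicate 2. All 4 endothelial markers were higher in PWD, summing to 54.4 to 68.7 CPM in PWD and 11.6 to 17.4 CPM in B6xPWD, as were 5 of 6 fibroblast, 3 of 5 myeloid and 3 of 10 enterocyte markers. Of 12 goblet markers 1 was higher and 4 were lower, and 2 of 7 Paneth markers were lower. The part of these cell types in the comparison was not tested.

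Enterocyte markers summed to 19803 to 46425 CPM in PWD and 7532 to 19429 CPM in B6, with 3 of 10 called higher (9.96% of all genes). Of 7 Paneth markers 5 were lower (8.79% of all genes). In PWD against B6, 2 of 6 fibroblast, 2 of 5 myeloid and 1 of 4 endothelial markers were higher, and 3 of 6 B and plasma cell markers were lower. Their part in the strain differences was not tested. Of the pathway lists in PWD against B6, 1 of 4 mucins was lower, Muc4, with 0.926 ± 0.284 CPM in PWD and 45.1 ± 32.3 CPM in B6 (SD, n = 3 each), a log2 difference of -5.07. Of 21 donor genes 1 was higher and 6 lower. Ugp2, which makes UDP-glucose, was higher by 1.92, and the GDP-fucose enzyme Gmds and the GDP-fucose transporter Slc35c1 were lower, at -1.02 and -1.07. Of 12 cap genes 3 were higher and 1 lower, with Papss2 at 1.71, Chst2 at 1.25 and Gal3st2 at -2.22.

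C5 against B6 asked what differed when chromosome 5 came from PWD, over adenomas, Min mucosa and wild-type mucosa. Of 59 members 13 were called (18.6% of all genes), 9 higher (10.3%) and 4 lower (8.36%). Of the members on chromosome 5, Galnt11, a starting enzyme, was called, and the chain-extending B3gnt4 was not tested. Galnt11 (mm10 chr5:25222872-25265918) had 20.2, 20.5 and 22.1 normalised CPM in C5 adenomas, against 12.3, 13.1 and 14.7 in B6 adenomas. It had 16.8, 17.4 and 19.2 CPM in C5 Min mucosa, against 6.41, 13.1 and 12.4 in B6 Min mucosa. It had 15.6, 30.6 and 20.1 CPM in C5 wild-type mucosa, against 11.3, 10.9 and 9.64 in B6 wild-type mucosa. No C5 library overlapped the B6 libraries, and the mean log2 difference was 0.81 ± 0.13 (SE, adjusted p = 0.000105, edgeR).

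Galnt11 was also read in the other groups that carry PWD chromosome 5. In PWD mucosa it had 28.9, 46.0 and 34.95 normalised CPM, in B6xPWD 23.1, 17.4 and 30.5, in C5F1 14.8, 16.7 and 15.4, against the B6 values above. The log2 difference from B6 was 1.75 ± 0.24 in PWD (SE, adjusted p = 2.25e-06, edgeR) and 1.11 ± 0.24 in B6xPWD (SE, adjusted p = 0.00278, edgeR). In C5F1 it was 0.54 ± 0.24 (SE, adjusted p = 0.375) and in C5 control organoids 0.86 ± 0.38 (SE, adjusted p = 0.839), neither called. B3gnt4 reached at most 1.002 CPM in any tissue library. The opposite-strand gene that overlaps exons of Galnt11 is E130116L18Rik.

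The other members higher in C5 were St3gal4 with a log2 difference of 0.99, B4galnt1 0.63, Galnt5 0.61, Gcnt2 0.54, B4galt5 0.51, St6galnac2 0.39, B4galt4 0.38 and B4galnt2 0.33. Those lower were B3galt5 at -1.43, Galnt18 -0.78, B3gnt9 -0.64 and B4galnt4 -0.57. Galnt11, Galnt5, Gcnt2 and B3gnt9 stayed called without any 1 of the 18 libraries. St3gal4 was lost without B6 wild-type replicate 1 or 2 (adjusted p = 0.0533 and 0.0530), and B4galnt1 without B6 wild-type replicate 2. The number called was 8 without B6 wild-type replicate 1, 7 without C5 wild-type replicate 2, 6 without C5 adenoma replicate 3 and 6 when replicate 1 of B6 Min mucosa was left out. Enterocyte markers, with 5 of 10 higher, and goblet markers, with 4 of 12 higher, moved in the same comparison, and their part was not tested. Of the pathway lists, 0 of 4 mucins, 1 higher and 3 lower of 21 donor genes and 2 higher of 12 cap genes were called.

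C5F1 against B6 gave no called member by edgeR (0.022% of all genes) and 1 by DESeq2. At an unadjusted p under 0.05 there were 10 of 59 members, beside 1565 of all 13657 genes. C5 against B6 in control organoids gave none by edgeR (0.209% of all genes, 0.127% higher and 0.0821% lower) or DESeq2. At an unadjusted p under 0.05 there were 4 of 51 members, beside 767 of all 13395 genes. These 4 were Galnt11, Gcnt2, B4galt5 and B4galt1.

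In organoids with AZA the branching enzyme Gcnt2, C1galt1c1, Gcnt4 and Fut2 were higher than in controls, and Fut8 was lower. Of the 51 members tested 9 were called (28.5% of all genes), 8 higher (15%) and 1 lower (13.5%). Gcnt2 had 106 and 85.8 normalised CPM in C5 organoids with AZA, against 33.9 and 23.7 in C5 controls. It had 98.1 and 103 CPM in B6 organoids with AZA, against 46.3 and 51.8 in B6 controls. The arms did not overlap, and the mean log2 difference was 1.38 ± 0.16 (SE, adjusted p = 1.86e-05, edgeR). C1galt1c1 had 154 and 200.2 CPM in C5 organoids with AZA, against 110.5 and 111 in C5 controls. It had 194 and 154 CPM in B6 organoids with AZA, against 97.3 and 105 in B6 controls, a mean log2 difference of 0.73 ± 0.13 (SE, adjusted p = 0.000885, edgeR).

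The promoter of Gcnt2 is shown because AZA is known to lower methylation at CG pairs. RefSeq (GRCm38.p6) gives 3 windows for this gene, and the one with the most CG pairs lies at chr13:40917384-40917683 on the plus strand, with CG in capitals.
Gcnt2: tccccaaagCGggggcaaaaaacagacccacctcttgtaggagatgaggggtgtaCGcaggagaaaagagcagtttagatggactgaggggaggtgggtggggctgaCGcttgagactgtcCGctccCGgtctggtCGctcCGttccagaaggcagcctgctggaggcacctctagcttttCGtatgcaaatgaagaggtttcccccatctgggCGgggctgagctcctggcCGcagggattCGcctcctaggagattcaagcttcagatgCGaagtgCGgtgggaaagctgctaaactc
It holds 13 CG pairs, and the other windows hold 8 and 6. Methylation was not measured here. Over the 4 higher members with an entry the highest CG count per gene ranged from 11 to 31 with a median of 17, against a median of 23 over the 47 members with an entry.

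Fut2 had 3.77 and 4.57 normalised CPM in C5 organoids with AZA, against 2.02 and 1.81 in C5 controls. It had 12.3 and 17.3 CPM in B6 organoids with AZA, against 1.44 and 3.05 in B6 controls. It stood higher with AZA in all 4 libraries and most in B6, with a mean log2 difference of 1.78 ± 0.48 (SE, adjusted p = 0.0115, edgeR), and was lost without B6 AZA replicate 2 (1.65, adjusted p = 0.0854). B4galt5 had 56.5 and 58.7 CPM in C5 organoids with AZA, against 26.3 and 19.2 in C5 controls. It had 73.5 and 90.2 CPM in B6 organoids with AZA, against 34.4 and 38.8 in B6 controls, a mean log2 difference of 1.24 ± 0.18 (SE, adjusted p = 9.34e-05, edgeR). B3gnt3 was higher by 0.77, B4galt6 by 0.76, Gcnt4 by 0.68 and Galnt1 by 0.39.

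Fut8 had 165 and 174 normalised CPM in C5 organoids with AZA, against 222 and 284 in C5 controls. It had 169 and 183 CPM in B6 organoids with AZA, against 211 and 246 in B6 controls. The arms did not overlap, and the log2 difference was -0.48 ± 0.12 (SE, adjusted p = 0.0091, edgeR). Its call was lost without B6 control replicate 2 (-0.43, adjusted p = 0.0538), and that of Galnt1 without B6 control replicate 1 or 2 or B6 AZA replicate 2 (adjusted p 0.0570 to 0.112). No member differed in its AZA effect between C5 and B6 by edgeR (0% of all genes) or DESeq2. At an unadjusted p under 0.05 there were 3 of 51 members, beside 609 of all 13395 genes.

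**Figure D5:**
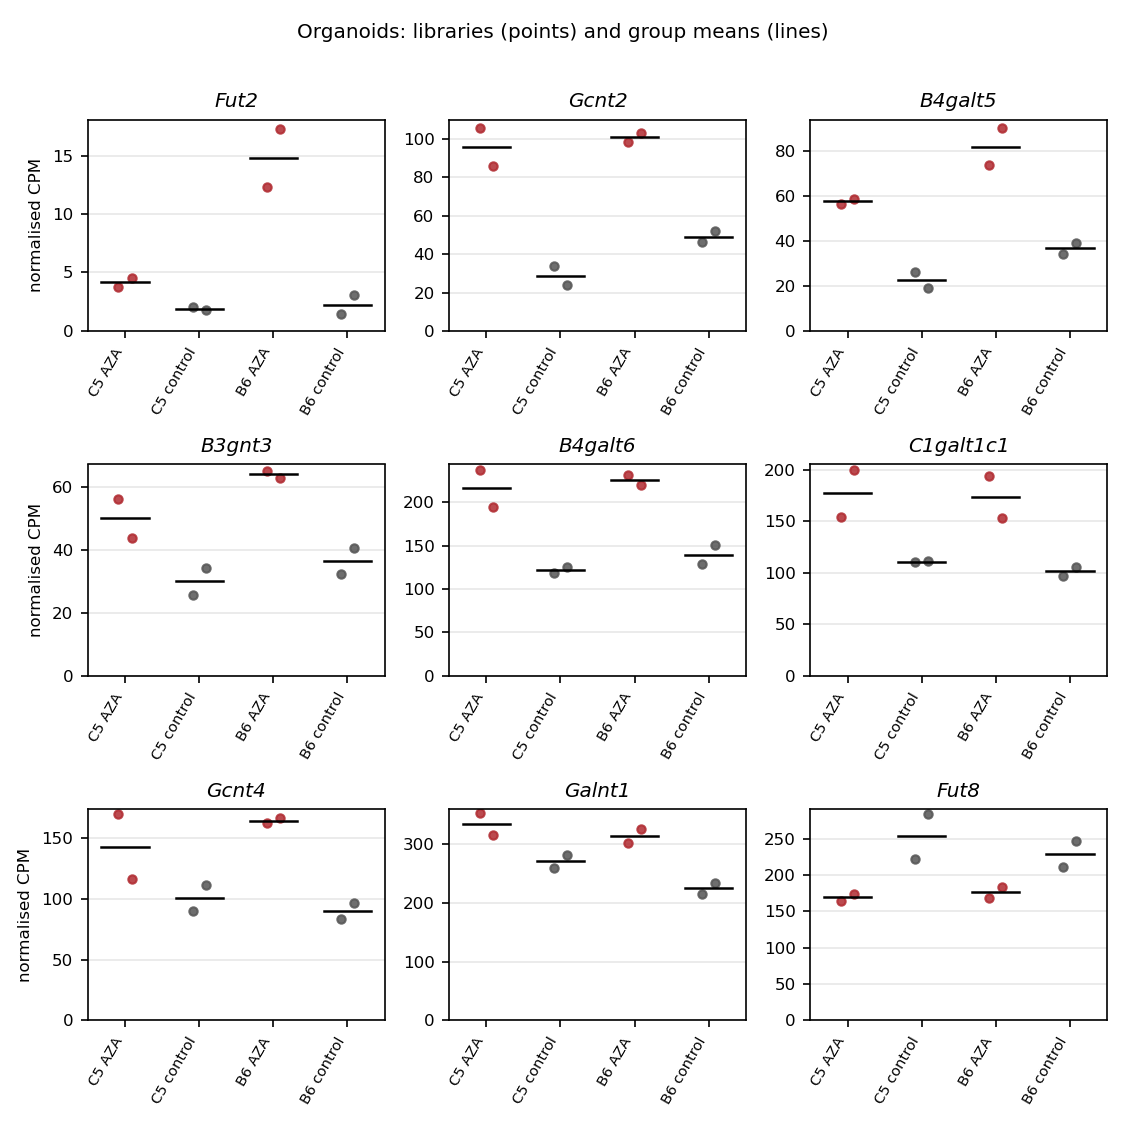
Normalised CPM in organoids with AZA and in controls, for C5 and B6, one point per library (2 in each group). All 4 AZA libraries of Gcnt2 lie at 85.8 CPM or more and all 4 controls at 51.8 CPM or less, and Fut8 runs the other way.

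Cell type markers moved with AZA, with 15% of all genes higher and 13.5% lower. The enterocyte list summed to 21519 to 33004 CPM with AZA and 3837 to 9132 CPM in controls, with 10 of 10 higher. Goblet markers had 8 of 11 higher and Paneth markers 6 of 6 higher, and their part was not tested. Of 7 mucins tested 3 rose, with Muc5b at a log2 difference of 2.39, Muc2, the main secreted gut mucin, at 1.05 and Muc13 also called. Of 20 donor genes 2 were called higher, neither beyond 1. Of 11 cap genes 4 rose and 1 fell, with Ggta1 at 3.002, the sulfate donor enzyme Papss2 at 2.99, Gal3st2 at 2.94 and the sulfotransferase Chst4 at 2.01.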

How the data were processed

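The authors deposited 1 table of whole-number read counts per gene symbol for 47 libraries. The submitters' processing notes name BWA, HTSeq and mm10. Their versions, the gene models and the setting for strand were not given in the sources used here. The 5 HTSeq summary rows took 40.7 to 53.9% of a tissue library and 46.4 to 63.5% of an organoid library and were left out.

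Tissue (39 libraries, 13657 genes) and organoids (8 libraries, 13395 genes) had separate fits in edgeR 4.0.16 (R 4.3.3). Low genes were removed by filterByExpr with group as factor (10 counts, total of 15), normalisation was TMM, and 1 mean per group was tested by the quasi-likelihood F-test. P-values were adjusted by Benjamini-Hochberg over all genes and called under 0.05. Values per library are TMM-normalised CPM. Log2 changes carry a prior count of 2, and their SE is the change divided by the root of F. Exon lengths and promoters came from RefSeq GRCm38.p6, where 64 members matched by symbol and B3gnt1 by a synonym that is not unique. Counts of all 39 tissue libraries were simulated from gene means over all tissue, with changes added at genes above a mean of 5 CPM. With the change placed in B6 adenomas (13331 genes), log2 changes of 1 were recovered in 55.4% and of 2 in 100% of cases. For PWD against B6 the shares were 44.2% and 100%, and over the mean of 4 backgrounds 100% and 100%. In organoids simulated likewise, the shares for AZA were 70.8% and 92.6%. Each simulated gene took its spread from the trend over expression level, without a spread of its own and without pairing. Recovery for members with a wider spread than that trend was not simulated, nor was recovery at lower levels, where some members lie.

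Called members were named with their change, or the 15 largest in each direction where over 30 were called, with values per library where the change reached 1 and the mean 5 CPM. The members, lists and rule were chosen with earlier results of these data known. Between adenoma and Min mucosa, libraries of the same replicate number deviated together in all 12 pairs (correlation 0.107 to 0.455), so the numbers paired them. For Min and wild-type mucosa (-0.269 to 0.256) and between strains (-0.284 to 0.228) they did not. In organoids, 2 libraries in each group left 1 value per background, -0.000293 in B6 and -0.0117 in C5. These values showed no shared deviation but are too few to settle whether AZA and control libraries were paired. Alternatives were DESeq2 1.42.0, its size factors, no filter, Rn45s left out, the compared groups alone, a replicate block and each library left out.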

Additional observations from a re-analysis of the deposited data

Results flagged for a closer look

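Of the results above, 3 showed an adenoma effect that differed between B6xPWD and B6 by the test of the interaction. For B3galt5 the adenoma effect in B6xPWD minus that in B6 was 5.55 on the log2 scale, with an effect of 4.499 in B6xPWD and -1.05 in B6. For St6galnac4 it was 1.69, with 1.81 in B6xPWD. For St6galnac2 it was -1.42, with 1.02 in B6. The groups had 3 or 2 libraries, too few for a test of single outlying samples.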

How the results depend on the processing

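Fits with DESeq2, its size factors, no filter on low counts or without Rn45s moved the number of called members by no more than 1.5 times in the tests above, except that DESeq2 called 2 in C5 adenomas and 1 in C5F1 against B6. With the compared groups alone in the fit, which leaves fewer libraries for the spread, 2 members were called in C5 adenomas, 6 in B6xPWD adenomas, 1 each for the adenoma effect of C5F1 minus B6 and of B6xPWD minus B6, 12 for PWD against B6, 1 for B6xPWD against B6 and 8 for PWD against B6xPWD. The replicate block called 24 in C5F1 adenomas (34.9% of all genes) and 15 in C5 adenomas (13%). It called 5 for C5 minus B6 (4.44%) and 1 for C5F1 minus B6 (0.703%). In wild-type mucosa, where the numbers did not pair, it called 8 for PWD against B6, 1 for B6xPWD against B6 and 7 for PWD against B6xPWD, and it moved no other count by over 1.5 times. Shares of all genes are not set beside the counts for the compared groups alone, the wild-type blocks or the libraries left out. Those counts therefore do not show whether members lost calls more often than other genes did. Leaving out each library in turn gave 29 to 38 called members over the 4 backgrounds, 12 to 17 in B6 adenomas, 6 to 11 in C5F1, 0 to 1 in C5, 9 to 15 in B6xPWD, 0 to 4 for B6xPWD minus B6, 16 to 19 for PWD against B6, 5 to 10 for B6xPWD against B6, 7 to 15 for PWD against B6xPWD, 6 to 18 for C5 against B6, 0 to 1 for C5F1 against B6 and 7 to 12 for AZA, and 0 in the other tests. The lowest counts came without B6 adenoma replicate 1 or 2 (12), C5F1 Min mucosa replicate 1 (6), B6 wild-type replicate 1 or B6xPWD wild-type replicate 2 (5, B6xPWD against B6), B6xPWD wild-type replicate 2 or PWD replicate 2 (7, PWD against B6xPWD), and C5 adenoma replicate 3 or B6 Min mucosa replicate 1 (6, C5 against B6). Over 2594 values of named members, 2199 kept direction and side of the threshold, 386 were no longer called, 7 became called and 2 changed sign, both of members not called: Gcnt3 in adenomas (-0.0023 without B6xPWD adenoma replicate 2, up to 0.079 without others) and B4galnt2 in PWD against B6 (-0.12 without PWD replicate 3, up to 0.21 without others). The causes of these changes were not tested. The low counts of B3gnt5 and St3gal4 in PWD, and 3 libraries in each group (2 in organoids), limit the precision.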
